A study of Mus musculus with 2 samples.

Results

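The neurotrophins and their receptors were followed through 5 genes, the ligands Bdnf and Ntf3 and the receptors Ntrk2, Ntrk3 and Ngfr. They were taken by symbol from the 27998 genes listed for an E12.0 mouse library and the 31053 listed for an E9.5 library, and all 5 were present with at least 10 unique molecular identifiers (UMIs, each standing for 1 captured transcript) in each. All embryos carried K14Cre and R26mT/mG, in which Cre driven by the keratin K14 promoter switches epithelial cells from membrane tdTomato to membrane GFP; the driver starts after the younger stage. The E12.0 library came from 6 pooled embryos of 1 litter, whose mandibular epithelium was freed from mesenchyme with Dispase and sorted for GFP+ cells, and the E9.5 library held unsorted epithelium and mesenchyme from the mandibular arches of 8 pooled embryos of 1 litter. Both sexes were pooled and no treatment was given. With 1 library per stage there were no replicates, so no test was run: intervals around CPM (UMIs of a gene per 1000000 UMIs), shares and ratios are exact 95% intervals that cover counting error only.

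Neurotrophins are secreted growth factors that act through Trk receptor tyrosine kinases and through Ngfr, the low-affinity receptor that lacks a kinase and binds every member of the family. BDNF and neurotrophin 5 (Ntf5) bind the receptor encoded by Ntrk2, and neurotrophin 3 (Ntf3) binds mainly that of Ntrk3. They are best known for the survival and outgrowth of sensory nerve fibres, including those of the face, and they also act on epithelia, where receptor and ligand can be made without any neuron. The comparison asks in which regions of the early mandible, with its forming tooth buds, ligand and receptor transcripts lay together or apart.

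On GRCm38 with the GENCODE vM21 annotation, Bdnf (ENSMUSG00000048482) lies on the plus strand of chromosome 2 from 109674700 to 109727007. Ntf3 (ENSMUSG00000049107) lies on the minus strand of chromosome 6 from 126101412 to 126166910. Ntrk2 (ENSMUSG00000055254) lies on the plus strand of chromosome 13 from 58806569 to 59133970. Ntrk3 (ENSMUSG00000059146) lies on the minus strand of chromosome 7 from 78175959 to 78738012, and Ngfr (ENSMUSG00000000120) on the minus strand of chromosome 11 from 95568818 to 95587735. Bdnf, Ntrk2 and Ntrk3 overlap annotated genes on the opposite strand, and the sources used here do not state whether strand was used in counting. Reads came from the 3′ ends of transcripts, and the level of a gene is set only against its own level in other cells. Counts were given per gene, so the full-length receptor and the kinase-lacking form of Ntrk2 were not told apart.

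After removal of cells outside 200 to 5500 genes or above 10% mitochondrial UMIs, 11355 of 11663 barcodes remained at E12.0 with a median of 6349 UMIs, and 12744 of 14293 at E9.5 with a median of 13460.5. The libraries shared 44 barcodes among kept cells, and leaving those cells out kept every main result within its counting interval. The epithelial label held at E12.0, where 84.0% of cells had an Epcam UMI and 86.9% a Krt14 UMI, and where the 7 mesenchyme markers summed to 9.48 CPM. Endothelial Cdh5, Kdr and Emcn, crest Foxd3 and the muscle progenitor genes Tcf21 and Myf5 were at 0 there. The other genes of these lists were not. The 5 endothelium genes summed to 1.35 CPM at E12.0 against 60.7 over all E9.5 cells. The 4 muscle progenitor genes summed to 19.8 against 43.6, and the 5 crest and glia genes to 48.4 against 50.2. Depth differed among groups of cells, so shares of cells with a UMI are also given after each cell was thinned to 4100 UMIs at E12.0 or 3100 UMIs at E9.5, which left out 1024 and 1233 shallower cells.

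Regions of the E12.0 epithelium were marked by UMI counts of a region gene. The Irx1 gate (at least 1 UMI, dental epithelium) held 1617 cells, the Timp3 gate (at least 2, a gene the study places in the diastema between incisor and molar) 1951, and the Shh gate (at least 2, the initiation knot, the signalling centre of the tooth bud) 258. The Cxcl14 gate (at least 3, anterior epithelium) held 5107 cells, the Dmrt2 gate (at least 1, posterior epithelium) 617, and 3555 cells met no gate. With the gate gene left out, the dental list summed to 923 CPM in the Irx1 gate against 404 over all cells, the initiation knot list to 518 CPM in the Shh gate against 32.6, the anterior list to 1219 in the Cxcl14 gate against 654 and the posterior list to 213 in the Dmrt2 gate against 54.4. The Timp3 gate was not borne out as diastema: the 1 other listed gene, Prss23, was 116 CPM in it against 101 over all cells and 271 in the Shh gate, and its anterior list summed to 1639 CPM against 1517 over all cells. It is therefore called by its gene. The whole dental list was as high in the Shh gate, at 1289 CPM, as in the Irx1 gate, at 1142, and 301 cells met both the Irx1 and the Timp3 gate and 1057 both the Timp3 and the Cxcl14 gate.

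Under the study's own size criteria for cluster markers, a 1.3-fold difference and a UMI in 15% of the cells on the higher side, members met the criteria in 6 of 40 pairings of a member with a gate, all of them at E12.0. At E9.5 no member reached 15% of cells inside or outside the epithelium, crest or mesenchyme gate, so none could meet the criteria in these gates. The E9.5 muscle progenitor and endothelial gates were not among the 40 pairings. In muscle progenitors Ntrk2 met the criteria, at 33.7 against 3.32 CPM in all other cells and in 29.7% of cells. Ntf3 also met them there, at 20.4 CPM in 21.9% of cells, against 10.8 CPM over all E9.5 cells, that gate included. The share of all genes that met them in that gate was not counted, so these calls cannot be weighed against it. In the Irx1 gate, Ntrk2 was higher, where 1.70% of 15551 genes were higher, and Ntf3 lower, where 2.02% were lower. In the Timp3 gate, Bdnf was higher (0.431% of genes), and no member was lower (0.373%). In the Cxcl14 gate, Bdnf was higher (2.39%) and Ntrk2 lower (2.08%). In the Shh gate no member was higher (5.52%) and Ntf3 was lower (4.80%), and in the Dmrt2 gate no member met the criteria in either direction (2.75% and 1.83%). Outside the Dmrt2 gate Ntrk2 was in 10.6% of cells and Bdnf in 12.2%, so the 15% minimum kept both from being called lower. Their log2 differences there were -2.58 (-3.34 to -1.92) and -1.24 (-1.71 to -0.81). Ngfr and Ntrk3 stayed below 15% inside and outside every gate and could not be called. The study had singled out Ntrk2 from these same cells, so its call is not independent evidence. The count of 6 was 1 in thinned cells, 1 with a minimum of 25% of cells and 3 with a 2-fold difference.

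**Figure D1:**
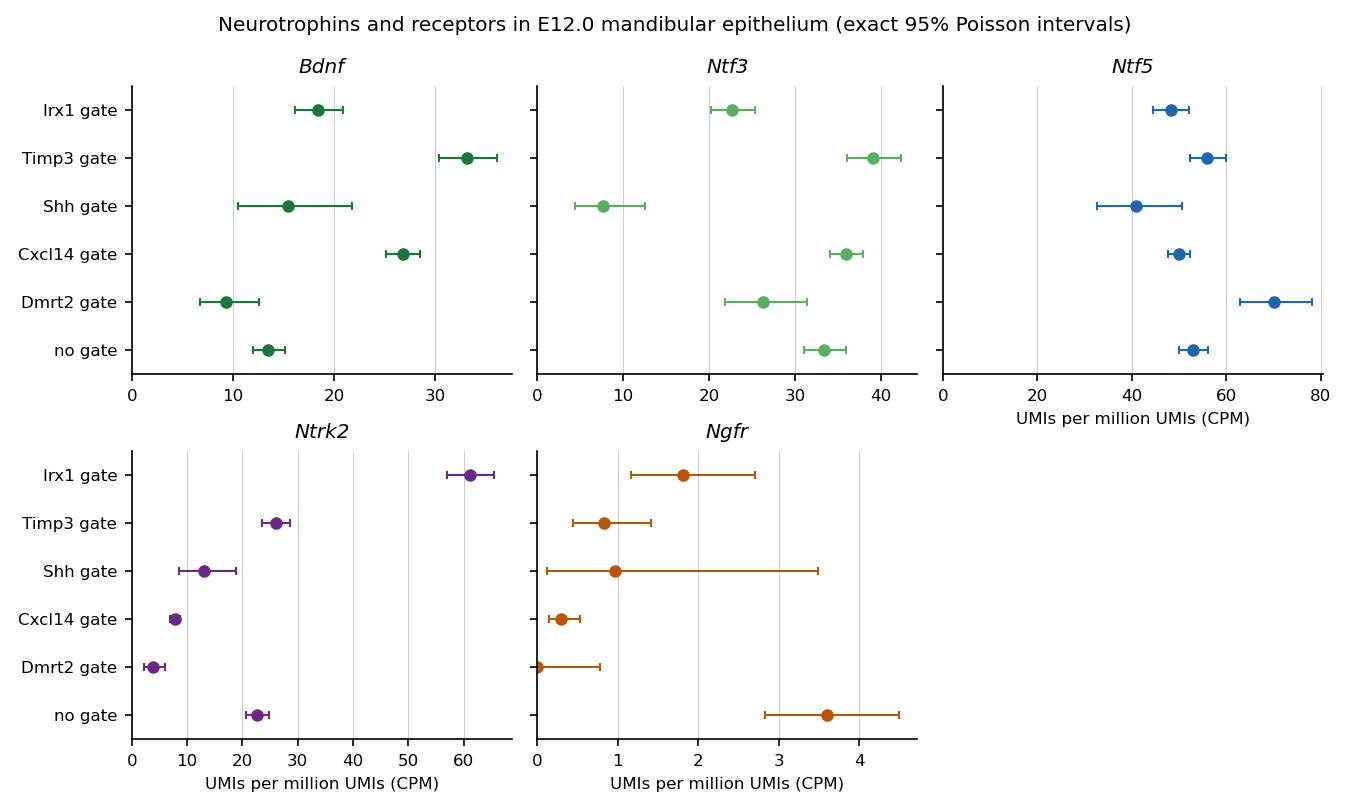
CPM of the ligands Bdnf, Ntf3 and Ntf5 and of the receptors Ntrk2 and Ngfr in the 5 E12.0 gates and in cells of no gate, as points with exact 95% Poisson intervals on linear axes that start at 0. Ntrk2 stood at 61.2 CPM in the Irx1 gate and at 3.82 CPM in the Dmrt2 gate, while Bdnf was highest in the Timp3 gate at 33.1 CPM.

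Bdnf was highest where Timp3 was expressed and lowest in posterior and tongue-marked epithelium. Over all E12.0 cells it had 1660 UMIs, or 21.3 CPM (20.3 to 22.3), in 11.9% of cells and in 7.59% after thinning. Its level was 33.1 CPM in the Timp3 gate (30.3 to 36.1), 26.8 in the Cxcl14 gate (25.1 to 28.5) and 18.4 in the Irx1 gate (16.1 to 20.8). It was 15.4 CPM in the Shh gate (10.5 to 21.8), 13.5 in cells of no gate (12.0 to 15.1) and 9.33 in the Dmrt2 gate (6.78 to 12.5). The Timp3 and Cxcl14 gates differed beyond counting error, by 0.31 on the log2 scale (0.15 to 0.46). The intervals of the Irx1 and Shh gates, of the Shh gate and cells of no gate, and of cells of no gate and the Dmrt2 gate overlapped, which does not show equal levels. Against all other cells, Bdnf in the Timp3 gate was higher by 0.85 on the log2 scale (0.70 to 1.01) and in the Irx1 gate lower, at -0.25 (-0.46 to -0.06). Cells with Foxa1 or Foxa2, the tongue markers, held 5.94 CPM of Bdnf (3.81 to 8.84).

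The Bdnf level followed Timp3 inside and outside the dental gate. In thinned cells it was 17.6 CPM with no Timp3 UMI, 27.6 with 1, 26.4 with 2, 41.0 with 3 and 34.8 with 4 or 5. In cells of both the Irx1 and the Timp3 gate Bdnf stood at 28.4 CPM (22.6 to 35.3), and in Irx1 gate cells without Timp3 at 15.6 CPM (13.3 to 18.2), a log2 difference of 0.87 (0.47 to 1.26). Within the Timp3 gate, cells that met the Cxcl14 gate held 34.8 CPM and the others 30.8, a log2 difference of 0.17 (-0.08 to 0.44) that did not exceed counting error. Within the Irx1 gate, Bdnf was 23.2 CPM with Fgf8, an early signal of the oral ectoderm, and 16.4 without (log2 difference 0.50, 0.11 to 0.89).

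Ntf3 was spread over the epithelium and low in the initiation knot. It had 2565 UMIs over all E12.0 cells, 32.9 CPM (31.6 to 34.2), in 19.4% of cells and in 12.7% after thinning. It stood at 39.1 CPM in the Timp3 gate (36.1 to 42.3), 35.9 in the Cxcl14 gate (34.0 to 37.9) and 33.4 in cells of no gate (31.0 to 36.0), with neighbouring intervals that overlapped. The Dmrt2 gate followed at 26.3 CPM (21.9 to 31.3) and the Irx1 gate at 22.7 (20.2 to 25.4), which overlapped each other, and the Dmrt2 interval just reached that of cells of no gate. The Shh gate held 16 Ntf3 UMIs, 7.71 CPM (4.4 to 12.5), and lay apart from every other gate. Against all other cells the log2 difference was -0.63 in the Irx1 gate (-0.81 to -0.45) and -2.12 in the Shh gate (-2.93 to -1.42).

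The low Ntf3 level of the Shh gate stood also against its nearest neighbours. Compared with Irx1 gate cells without Shh, at 23.4 CPM, the log2 difference was -1.60 (-2.43 to -0.88). In thinned cells Ntf3 was 35.3 CPM with no Irx1 UMI (33.4 to 37.2), 23.6 with 1 (18.6 to 29.6) and 18.0 with 2 (9.83 to 30.2). Within the Irx1 gate it was 31.7 CPM with Fgf8 and 18.9 without, a log2 difference of 0.74 (0.40 to 1.08), and 31.5 CPM with Timp3 and 20.2 without (0.64, 0.27 to 1.00). So the dental cells with Fgf8 or Timp3 held Ntf3 at about the level of the whole epithelium. In tongue-marked cells Ntf3 was 27.0 CPM (22.2 to 32.6) against 33.2 in the rest, a log2 difference of -0.30 (-0.59 to -0.02), where that of Bdnf was -1.90 (-2.54 to -1.32).

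Ntrk2, the receptor for BDNF and neurotrophin 5, marked the dental epithelium outside the initiation knot. It had 1690 UMIs in 1154 cells, 21.7 CPM (20.7 to 22.7), with at most 5 in any cell, and the Irx1 gate held 47.9% of them in 14.2% of cells. Its level was 61.2 CPM in the Irx1 gate (57.1 to 65.6), where 31.6% of cells had a UMI and 20.5% after thinning. The Timp3 gate followed at 26.0 CPM (23.5 to 28.6; 8.80% after thinning) and cells of no gate at 22.6 (20.7 to 24.8; 7.33%), with overlapping intervals. The Shh gate held 13.0 CPM (8.57 to 18.9; 3.21%), the Cxcl14 gate 7.76 (6.89 to 8.71; 2.32%) and the Dmrt2 gate 3.82 (2.26 to 6.03; 1.03%); the Shh and Cxcl14 intervals touched, and the Dmrt2 interval lay below both. The log2 difference from all other cells was 2.17 in the Irx1 gate (2.03 to 2.31), a 4.50-fold ratio, and -2.14 in the Cxcl14 gate (-2.33 to -1.95).

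No group of non-epithelial cells was set apart at E12.0 in which a background of free Ntrk2 RNA could be read. The lowest level among the fixed gates was that of Foxa1 or Foxa2, with 15 UMIs or 3.71 CPM (2.08 to 6.13) in 1.07% of thinned cells at a median of 7534 UMIs before thinning. The Dmrt2 gate was close to it at 3.82 CPM and 1.03%, the Cxcl14 gate lay above both, and cells with 10 or more Cxcl14 UMIs after thinning held 2 Ntrk2 UMIs or 0.340 CPM (0.0411 to 1.23) in 0.139% of cells. The Irx1 gate lay at 20.5% with a median of 7421 UMIs, so depth was close to equal in the highest and lowest of these gates. Cells just outside the Irx1 gate, with 0 Irx1 UMIs, held 13.6 CPM of Ntrk2, and those just inside, with 1 UMI, 57.7 CPM.

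Ntrk2 was higher in cells with UMIs of Irx1 or Fgf8, and along Cxcl14 it was higher at 1 UMI than at 0 and low at 4 or more. In thinned cells it was 17.9 CPM with no Fgf8 UMI (16.6 to 19.3), 49.2 with 1 (41.5 to 57.8) and 63.9 with 2 (44.0 to 89.7), the last on 33 Ntrk2 UMIs in 126 cells. With Irx1 it was 16.0 CPM at 0, 61.6 at 1, 60.3 at 2 and 89.3 at 3, the last with an interval of 58.3 to 131. With Cxcl14 it was 30.1 CPM at 0 (27.7 to 32.7) and higher, at 46.1, with 1 UMI (39.4 to 53.6). Beyond that it was 23.0 CPM at 2, 18.5 at 3, 5.50 at 4 or 5 and 0.340 at 10 or more.

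**Figure D2:**
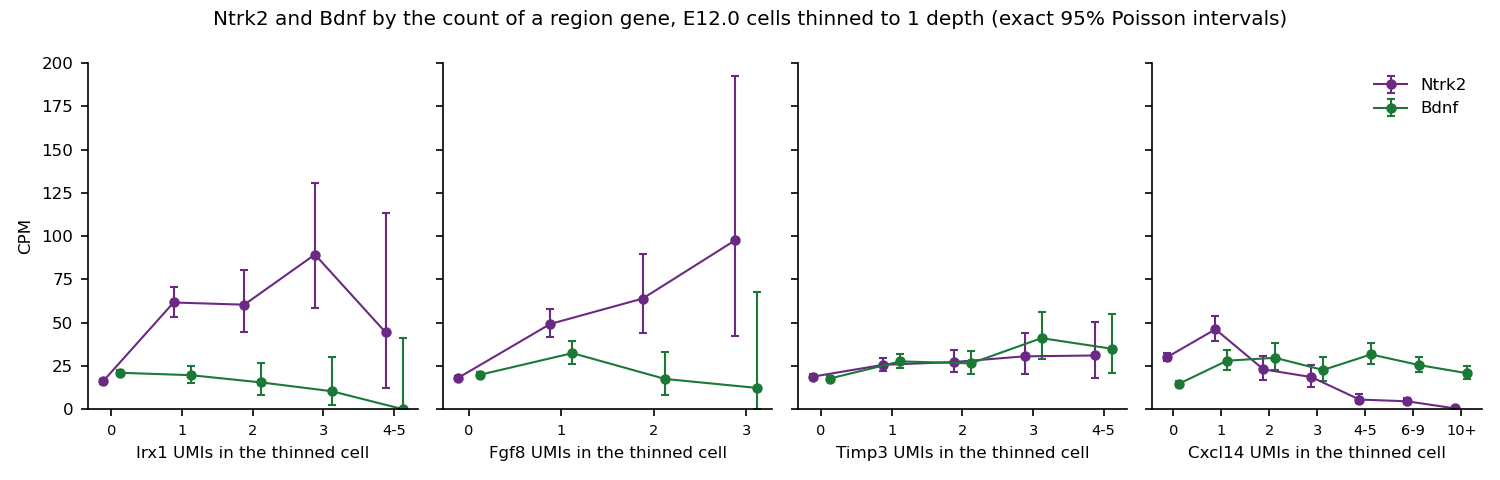
CPM of Ntrk2 and Bdnf in E12.0 cells thinned to 4100 UMIs, by the number of UMIs of Irx1, Fgf8, Timp3 or Cxcl14 in the thinned cell, with exact 95% Poisson intervals. Ntrk2 ran from 17.9 to 63.9 CPM along Fgf8 up to 2 UMIs and stood at 30.1 CPM with 0, 46.1 with 1 and 0.340 with 10 or more UMIs of Cxcl14, while Bdnf ran from 17.6 to 41.0 CPM along Timp3 up to 3 UMIs.

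The dental gate was not uniform in Ntrk2. Fgf8 within the gate went with 72.1 CPM (63.9 to 81.1) against 56.7 without it (log2 difference 0.35, 0.13 to 0.56), and cells with Fgf8 and no Irx1 held 37.1 CPM (32.7 to 42.0), so Ntrk2 was higher with both genes than with either alone. Cells with Grhl3, a periderm and suprabasal transcription factor, held 30.4 CPM within the gate (21.1 to 42.5) against 64.1 without it (-1.07, -1.61 to -0.58).

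The initiation knot held less Ntrk2 than the surrounding dental cells. The Shh gate, with 27 Ntrk2 UMIs and 13.0 CPM, lay below Irx1 gate cells without Shh at 63.7 CPM (59.4 to 68.3) by a log2 difference of -2.29 (-2.90 to -1.74). Cells that met both gates held 17.8 CPM (9.5 to 30.5), also below those without Shh (-1.84, -2.75 to -1.06). The difference was -3.14 with each gate raised by 1 UMI and -3.80 with gates set in thinned cells; Ntrk2 was 34.2 CPM in cells with 1 Shh UMI, just outside the gate, and 24.8 in those with 2. The 7 neuron markers summed to 82.8 CPM in the Shh gate against 6.82 to 11.6 in the other gates, 78.5 of it Tubb3, with Stmn2 and Neurod1 at 0, and the 6 periderm and suprabasal markers to 632 CPM against 285 to 357. The part of either list in the comparison was not tested.

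Within the Timp3 gate Ntrk2 differed by Irx1 and Cxcl14, while Bdnf did not beyond counting error (log2 difference with against without Irx1 -0.27, -0.63 to 0.08). Timp3 gate cells that also met the Irx1 gate held 65.9 CPM of Ntrk2 (56.8 to 75.9), and those without Irx1 17.0 (14.8 to 19.4), a log2 difference of 1.95 (1.66 to 2.24). Those that met the Cxcl14 gate held 8.81 CPM (6.98 to 11.0) and those that did not 49.6 (44.4 to 55.3). Timp3 gate cells with neither Irx1 nor Cxcl14 held 37.8 CPM of Ntrk2 (32.4 to 43.9) and 32.4 CPM of Bdnf (27.4 to 38.0), both above cells of no gate, by log2 differences of 0.74 (0.48 to 0.99) and 1.27 (0.97 to 1.56). The log2 difference of Ntrk2 between the whole Timp3 gate and all other cells was 0.34 (0.17 to 0.50). It was 0.92 when Timp3 gate cells that met no other gate were set against all remaining kept cells. These subsets of the Timp3 gate were chosen after values were seen.

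**Figure D3:**
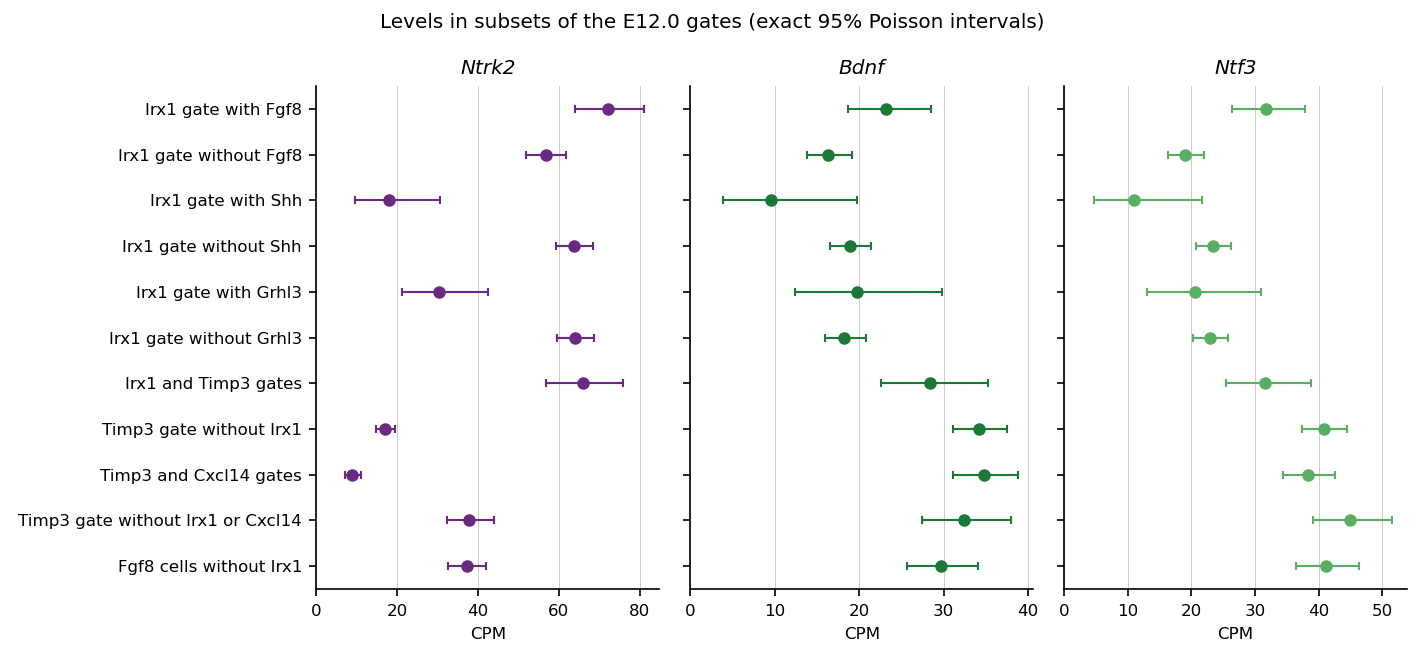
CPM of Ntrk2, Bdnf and Ntf3 in subsets of the E12.0 gates, with exact 95% Poisson intervals on axes that start at 0. Ntrk2 was 72.1 CPM in Irx1 gate cells with Fgf8 and 8.81 CPM in cells of both the Timp3 and Cxcl14 gates, whereas Bdnf was 34.8 CPM in the latter.

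Gjb6, a gap junction gene, marked 703 cells with 4.86 CPM of Ntrk2 (3.18 to 7.13) and 11.8 CPM of Bdnf (9.06 to 15.1). Isl1 cells, with 21.5 CPM of Ntrk2 (19.4 to 23.8), did not differ from the rest beyond counting error (log2 difference -0.01, -0.18 to 0.15), but within the Irx1 gate Ntrk2 was 51.2 CPM with Isl1 and 64.7 without (-0.34, -0.59 to -0.09).

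The genes whose levels were most like that of Ntrk2 over the 11 exclusive gate combinations of at least 50 cells were Gnl3 (Pearson r of log2(CPM + 5) 0.964), Srm, Rcl1, Nop10 and Cd3eap (r 0.922), of 7962 genes compared. Gnl3, a nucleolar protein, ran between 139.6 and 198 CPM over these combinations, a far narrower range than that of Ntrk2, which ran from 3.01 to 78.0 CPM. For Ntf3 the closest were the replication helicase gene Mcm4 (r 0.986), the BMP antagonist Nog (0.985), Fam111a, Rnf7 and the hedgehog effector Gli2 (0.968), and Nog ran from 2.73 to 66.9 CPM. All points came from 1 library, so these values describe likeness over cell groups and no more.

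Cell cycle genes were compared between Irx1 gate cells with and without an Ntrk2 UMI, after thinning (323 and 1250 cells). The 8 cycling genes summed to 1776 CPM with Ntrk2 and 1615 without, a log2 difference of 0.14 (0.07 to 0.20). Mki67 and Top2a made up 557 and 680 CPM of the first sum. Taken singly, Mki67 (0.21, 0.09 to 0.33) and Cdk1 (0.27, 0.01 to 0.51) were higher beyond counting error. The others were not, and Mcm2 had the opposite sign (-0.19, -0.50 to 0.10). Once Shh gate cells were left out, Mki67 was still higher beyond counting error (0.19, 0.07 to 0.31), but Cdk1 was not (0.249, -0.007 to 0.499). Cdkn1a, which encodes the cell cycle inhibitor p21, was 41.5 CPM with Ntrk2 and 76.7 without (-0.88, -1.32 to -0.47), and 40.5 against 60.1 once Shh gate cells were left out (-0.57, -1.02 to -0.14). Ccnd1, a cyclin of the entry into division, was 327 against 274 CPM (0.26, 0.10 to 0.41). Over all thinned E12.0 cells Cdkn1a was 45.8 CPM with Ntrk2 and 47.2 without (-0.05, -0.31 to 0.21). These differences are between cells of 1 library and were not tested.

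Ntrk3, the receptor for neurotrophin 3, was close to absent from the E12.0 counts. It had 13 UMIs in 13 cells, 0.167 CPM (0.0888 to 0.285), with 5 in the Irx1 gate, 2 in the Cxcl14 gate, 1 of them in both, and 7 in cells of no gate. The Timp3, Shh and Dmrt2 gates held 0, which allows up to 0.191, 1.44 and 0.636 CPM. The Irx1 gate exceeded the Cxcl14 gate by a log2 difference of 2.80 (0.19 to 6.19) on these few UMIs, but not all other cells beyond counting error (1.61, -0.35 to 3.41). Ntf3, the main ligand of this receptor, was counted in 2198 cells and Ntrk3 in 13, and 1 cell held both.

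Ngfr was sparse, and most of its UMIs lay in cells of no gate. It had 121 UMIs in 93 cells at E12.0, 1.55 CPM (1.29 to 1.86), of which 76 UMIs (3.59 CPM, 2.83 to 4.50) were in cells of no gate. The Irx1 gate held 24 UMIs or 1.81 CPM (1.16 to 2.70), the Timp3 gate 13 or 0.828 (0.441 to 1.42), the Shh gate 2 or 0.963 (0.117 to 3.48) and the Cxcl14 gate 11 or 0.298 (0.149 to 0.534). The Dmrt2 gate held 0, which allows up to 0.636 CPM. Compared with the Irx1 gate, the Timp3 gate gave a log2 difference of -1.13 (-2.23 to -0.10), the Cxcl14 gate -2.60 (-3.78 to -1.52) and the Shh gate an interval wide enough to hold either direction. The log2 difference between the Irx1 gate and all other cells was 0.27 (-0.43 to 0.93), and it ran from -2.28 to 1.45 under other settings, so no direction can be read. Of the 24 Ngfr UMIs in the Irx1 gate, 11 lay in its 44 cells with Foxa1 or Foxa2, at 24.2 CPM (12.1 to 43.3). Cells with exactly 1 Irx1 UMI held 22 of the 24. The part of these cells in the comparisons of the Irx1 gate was not tested.

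Cells with Foxa1 or Foxa2, and cells with Sox10, stood out in Ngfr. The 494 cells with Foxa1 or Foxa2 held 44 Ngfr UMIs, 36.4% of the library's, at 10.9 CPM (7.92 to 14.6), a log2 difference of 3.39 from all other cells (2.82 to 3.94). The 88 cells with a UMI of Sox10, a crest and glial transcription factor, held 34 Ngfr UMIs at 40.1 CPM (27.7 to 56.0), in 26.1% of them and 13.8% after thinning; this group was set after its values were seen. The Sox10 cells were epithelial by their markers, with 1468 CPM of the epithelium list against 2086 over all cells and 4.71 CPM of the mesenchyme list. Their crest and glia list summed to 244 CPM, with Foxd3 at 0, against 48.4 over all cells. That sum includes Sox10, which set the group, and so is raised by the choice of cells. The part of the list in the Ngfr level was not tested. They also held 4 of the 13 Ntrk3 UMIs, while Foxa cells without Sox10 still held 8.83 CPM of Ngfr (6.08 to 12.4).

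Ngfr was seldom found with Fgf8 or Ntrk2. The 1363 cells with Fgf8 held 0 Ngfr UMIs, which allows up to 0.283 CPM. Ntrk2 and Ngfr were found together in 1 cell at full depth where the product of their shares gives 9.45, a ratio of 0.106 (0.00268 to 0.589), and in 0 of 10331 thinned cells where it gives 3.48.

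Ligand and Ntrk2 transcripts were found in the same cells about as often as their separate shares give. Bdnf and Ntrk2 were both detected in 60 of 10331 thinned E12.0 cells, against 54.6 from the product of the shares, a ratio of 1.10 (0.840 to 1.41). Ntf5 and Ntrk2 gave 0.894 (0.741 to 1.07) and Ntf3 and Ntrk2 0.983 (0.791 to 1.21). At full depth, where deep cells hold more of every gene, the Bdnf ratio was 1.28 (1.10 to 1.48), and with at most 5% mitochondrial UMIs 0.773 (0.334 to 1.52). None of the 3 ratios in thinned cells differed from 1 beyond counting error. Within the Irx1 gate, 23 of 105 thinned Bdnf cells also had Ntrk2, a ratio of 1.07 (0.678 to 1.59), and in the Timp3 gate 21 of 234, a ratio of 1.02 (0.633 to 1.55).

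Most joint counts of Ntrk2 or Bdnf with region genes departed from 1, that of Bdnf with Irx1 excepted. Ntrk2 with Irx1 gave 214 thinned cells against 74.5, a ratio of 2.87 (2.50 to 3.28), and with Fgf8 156 against 60.9, or 2.56 (2.18 to 2.99). Ntrk2 with Cxcl14 gave 0.613 (0.538 to 0.694) and with Dmrt2 0.113 (0.0233 to 0.331). Bdnf went with Timp3 at 1.40 (1.24 to 1.56) and with Cxcl14 at 1.25 (1.15 to 1.36), and with Irx1 at 0.862 (0.672 to 1.09). Of the ligands, Bdnf and Ntf3 were found together at 1.08 (0.889 to 1.31).

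**Figure D4:**
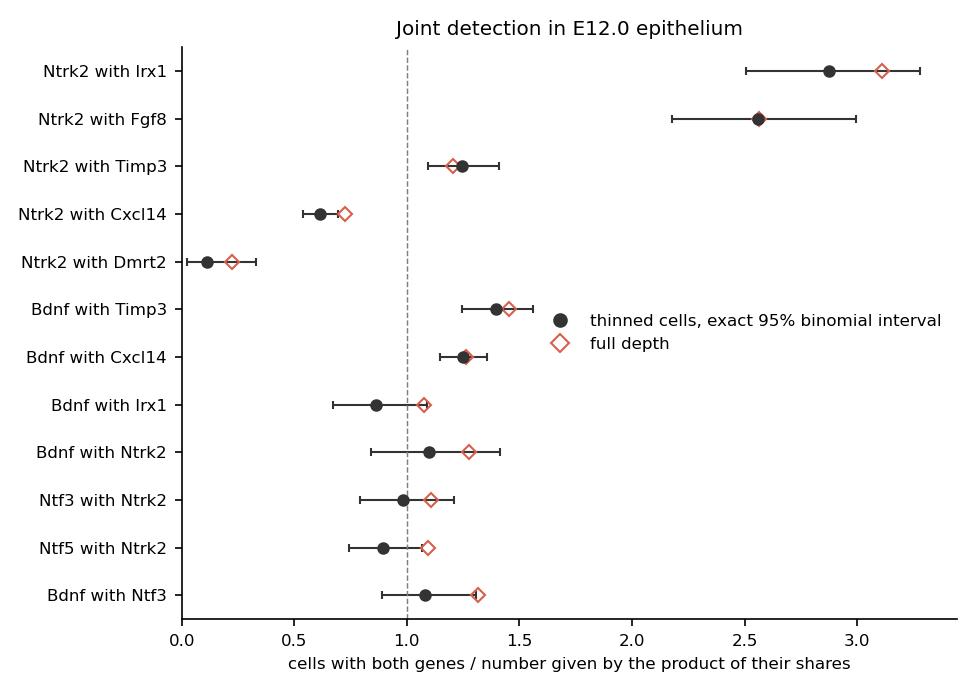
Number of E12.0 cells with a UMI of both genes divided by the number given by the product of their shares, for 12 pairs, with filled points for thinned cells and exact 95% binomial intervals and open diamonds for full depth; the dashed line marks 1. Ntrk2 with Irx1 stood at 2.87 and Ntrk2 with Dmrt2 at 0.113, while the ligand and Ntrk2 pairs lay between 0.894 and 1.10 in thinned cells.

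Ntf5, the other ligand of Ntrk2, was spread over the epithelium, at 51.8 CPM (50.2 to 53.4) over all cells and 48.2 in the Irx1 gate (44.5 to 52.1). Its highest gate level was in the Dmrt2 gate, at 70.2 CPM (62.8 to 78.2), where it met the size criteria as higher. The gate with the most Ntf5 was thus the gate with the least Ntrk2. Ntf5 was not set apart from its receptor gene, however, since it also stood at 48.2 CPM in the Irx1 gate, where Ntrk2 was highest.

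Of 28 further genes of the pathway, taken from a list fixed with earlier results known, 27 had at least 10 UMIs at E12.0. In the Irx1 gate 0 were higher and 2 lower (1.70% and 2.02% of all genes), Nradd, an Ngfr-like receptor, at 24.4 against 36.4 CPM, and Gab1, a docking protein for receptor kinases, at 28.0 against 44.4. The Timp3 gate had 0 in either direction (0.431% and 0.373%). In the Shh gate 3 were higher (5.52% of all genes), Traf6, Furin and Gab1, and Nradd was lower (4.80%). Furin, a protease that cuts neurotrophin precursors, was 51.1 against 29.0 CPM. In the Cxcl14 gate 3 were higher (2.39%) and 0 lower (2.08%), Furin, Gab1 and Kidins220, a Trk substrate, at 76.7 against 54.9 CPM, and in the Dmrt2 gate Ntf5 was higher (2.75%) and Furin lower (1.83%). The adaptors Shc1, Frs2, Plcg1, Grb2 and Sos1, through which Trk receptors signal, met the criteria in none of the 5 gates.

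At E9.5 cells were gated by type into epithelium (2871 cells), crest (1743), mesenchyme (3905), muscle progenitors (762) and endothelium (451). With the genes that set the gates left out, the epithelium list summed to 1313 CPM in the epithelium gate against 457 over all cells, and Msc and Tbx1 to 315 CPM in the muscle progenitor gate against 32.9. The crest gate, set by Sox10, held 1118 CPM of the whole mesenchyme list, and 135 CPM without Twist1 and Prrx1 against 174 in the mesenchyme gate. Foxd3, a defining crest gene, was at 1.68 CPM, so the crest gate is one on Sox10 in cells that also carried mesenchyme genes. In the epithelium, crest and mesenchyme gates no member could meet the size criteria, as none reached 15% of cells inside or outside them. Ntf3 came nearest, at 13.3% of epithelium gate cells. Of 17262 genes, 10.1% were higher and 4.37% lower in epithelium, 1.66% and 3.93% in crest, and 1.29% and 5.27% in mesenchyme. Below that minimum, Ngfr in crest differed from all other cells by 1.69 on the log2 scale (1.40 to 1.98). Ntrk2 differed by -2.56 in crest (-3.12 to -2.04) and -1.59 in mesenchyme (-1.89 to -1.31). The 3010 cells of no gate, in which the 5 blood genes summed to 6968 CPM, were not resolved, and the same genes summed to 385 to 957 CPM in the 5 gates.

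Ntrk2 at E9.5 was highest in muscle progenitors and not in the epithelium. The muscle progenitor gate held 352 of the library's 869 Ntrk2 UMIs, 33.7 CPM (30.3 to 37.4), in 29.7% of cells and 8.79% after thinning. The epithelium gate followed at 5.55 CPM (4.81 to 6.36; 2.04%), then the mesenchyme gate at 2.20 (1.82 to 2.64; 0.601%), the endothelial gate at 1.17 (0.504 to 2.30; 0.459%) and the crest gate at 1.04 (0.709 to 1.48; 0.469%). The intervals of mesenchyme and endothelium and of endothelium and crest overlapped. The last 2 were the lowest gates, on 8 and 31 UMIs, at median depths of 14926 and 17200 UMIs against 12833 in muscle progenitors. Whether their Ntrk2 UMIs came from expression or from free RNA was not tested. Epithelium exceeded mesenchyme by a log2 difference of 1.33 (1.00 to 1.67), and muscle progenitors exceeded epithelium by 2.60 (2.35 to 2.86).

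Among muscle progenitors, Ntrk2 went with Tbx1, a regulator of branchial muscle, at 38.6 CPM (34.5 to 43.1) against 14.2 without it (9.57 to 20.3). With Msc it was 43.1 CPM (37.5 to 49.3) and without 25.2 (21.2 to 29.8). In the E9.5 epithelium a split by Irx1 gave 6.24 CPM of Ntrk2 with it and 5.25 without. The log2 difference of 0.25 (-0.19 to 0.68) did not exceed counting error. The study saw Irx1 in most ectodermal cells at E9.5, by hybridization on tissue sections. This split is therefore not like that of the later dental gate. A UMI of Irx1 was counted in 784 of 2871 epithelium gate cells, which include 501 cells with Foxa1, Foxa2 or Pax1. Hybridization and UMI counts are unlike measures, so these shares are not set against the study's. In epithelial cells with at least 2 UMIs of Vgll2, Ntrk2 was 3.86 CPM, against 7.06 in the others (-0.87, -1.31 to -0.44). Over the 5 gates, the genes most like Ntrk2 of 6964 compared were Cnot9 (r 0.999), Ndufab1, Wwp1, Tcf7, which ran from 14.9 to 70.9 CPM, and the tendon factor Scx, which ran from 0.876 to 20.2 CPM. With 5 points from 1 library such values of r describe the gates only. The Msc and Tbx1 splits were chosen after values were seen.

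Ntf3 was the member ligand most widely detected at E9.5, in 11.9% of cells and 3.32% after thinning. It was 20.4 CPM in muscle progenitors (17.7 to 23.3), 11.7 in mesenchyme (10.8 to 12.7), 11.4 in epithelium (10.4 to 12.6), 6.93 in crest (6.02 to 7.94) and 3.65 in endothelium (2.36 to 5.39). Epithelium and mesenchyme did not differ beyond counting error, with a log2 difference of -0.04 (-0.22 to 0.14). Bdnf was also highest in muscle progenitors and lowest in endothelium, with 6.22 CPM in muscle progenitors (4.80 to 7.93), 3.48 in epithelium (2.90 to 4.14), 2.03 in mesenchyme (1.67 to 2.46), 1.38 in crest (0.990 to 1.87) and 1.17 in endothelium (0.504 to 2.30). The intervals of mesenchyme and crest, and of crest and endothelium, overlapped. Set directly against mesenchyme, however, crest gave a log2 difference of -0.56 (-1.12 to -0.03). Within the epithelium Bdnf was 5.56 CPM in cells with Foxa1, Foxa2 or Pax1, which mark the pharyngeal side, and 3.01 without (log2 difference 0.89, 0.30 to 1.45). At E12.0 cells with Foxa1 or Foxa2 were low in Bdnf, but that group left out Pax1 and came from sorted epithelium. The orders at the stages are therefore not of like cells. Ntf3 and Ntrk2 were found together in 18 thinned cells against 6.34, a ratio of 2.84 (1.68 to 4.49), and within muscle progenitors in 8 against 4.04 (1.98, 0.856 to 3.88).

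Ngfr at E9.5 was highest in the crest gate, with 166 of 402 UMIs at 5.58 CPM (4.77 to 6.5), in 8.61% of cells and 0.997% after thinning. It was 2.47 CPM in mesenchyme (2.06 to 2.93), 1.46 in endothelium (0.700 to 2.68), 1.15 in muscle progenitors (0.593 to 2.01) and 0.680 in epithelium (0.440 to 1.00); the intervals of mesenchyme and endothelium, of endothelium and muscle progenitors, and of muscle progenitors and epithelium, overlapped. Crest exceeded mesenchyme by a log2 difference of 1.18 (0.84 to 1.52), but by 0.60 (-0.38 to 1.56) after thinning and by -0.23 (-2.59 to 1.46) with gates also set in thinned cells. Mesenchyme cells with Hand2, a distal arch regulator, held 0.693 CPM (0.299 to 1.37) against 2.96 without it (2.46 to 3.53). Ntrk3 showed the reverse split, 0.779 CPM with Hand2 (9 UMIs) and 0.168 without (7 UMIs), a log2 difference of 2.21 (0.62 to 3.87), on few counts. Between gates Ntrk3 ran from 0.269 to 0.438 CPM on 47 UMIs in all, and epithelium against mesenchyme gave -0.15 (-1.45 to 1.08), so no difference was detectable.

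**Figure D5:**
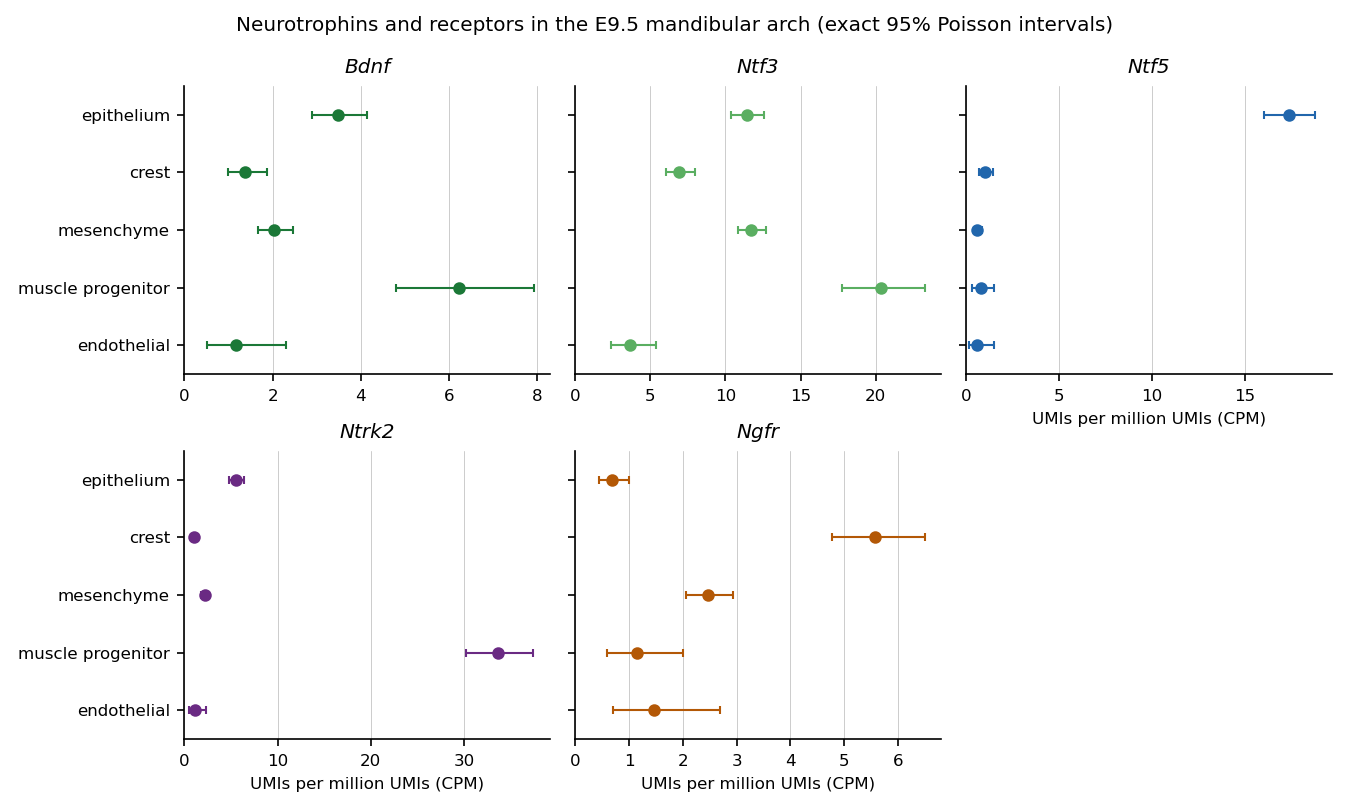
CPM of Bdnf, Ntf3, Ntf5, Ntrk2 and Ngfr in the 5 E9.5 gates of the unsorted arch, as points with exact 95% Poisson intervals on linear axes that start at 0. Ntrk2 stood at 33.7 CPM in muscle progenitors against 5.55 in epithelium, Ntf5 at 17.4 CPM in epithelium against at most 1.01 in the other gates, and Ngfr was highest in the crest gate at 5.58 CPM.

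The other ligand of Ntrk2, Ntf5, was the epithelial ligand of the E9.5 arch. It stood at 17.4 CPM in epithelium (16.0 to 18.8) and between 0.584 and 1.01 CPM in the other 4 gates, and within the epithelium at 26.5 CPM with Sfn, an outer-layer marker, and 13.2 without. Of the 28 further pathway genes, 10 were higher in the epithelium gate, where 10.1% of all genes were, among them Ntf5, the sorting receptors Sort1 (26.5 against 8.63 CPM) and Sorl1 (18.1 against 2.83), and the Ngfr-binding Bex3. In the same gate 3 were lower (4.37% of all genes), Shc1, Sh2b2 and Gab1. In the crest gate Sh2b2 was higher (1.66%) and 4 were lower (3.93%), Sort1, Bex3, Frs2 and Kidins220, and in the mesenchyme gate the counts were again 1 higher (1.29%) and 4 lower (5.27%).

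Between the stages, the members were set side by side in E12.0 cells and the E9.5 epithelium gate. Stage, sorting, tissue make-up, library and gene list cannot be told apart there. The E9.5 gate included 501 cells with Foxa1, Foxa2 or Pax1 among its 2871. Bdnf was 21.3 against 3.48 CPM, a log2 difference of 2.61 (2.35 to 2.88), and Ntf3 32.9 against 11.4 (1.53, 1.38 to 1.68). Ntrk2 was 21.7 against 5.55 CPM (1.97, 1.76 to 2.18) and Ngfr 1.55 against 0.680 (1.19, 0.56 to 1.87). Ntrk3 gave -0.71 (-2.01 to 0.64), with 13 and 10 UMIs. Of the further pathway genes, Ntf5 was 51.8 CPM against 17.4 (1.58, 1.46 to 1.70). Adaptors of the Trk receptors varied. Plcg1 was 49.1 against 41.0 CPM and Frs2 39.0 against 32.6. Kidins220 was 65.2 against 20.2 CPM, Gab1 41.6 against 16.2 and Sos1 99.2 against 45.7. Shc2 was lower at E12.0, 5.57 against 9.25 CPM. The Ngfr-binding Bex3 was also lower at E12.0, 354 against 1213 CPM.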

How the data were processed

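Single cell 3′ libraries (10x v3 chemistry) were made by the authors from 1 pooled E12.0 and 1 pooled E9.5 sample, 6 and 8 embryos of 1 litter each. The deposited values are UMI counts per gene and cell, not normalized, aligned to GRCm38; per the labels Cell Ranger 2.0.0 was used, whereas the file headers name 3.1.0 (E12.0) and 6.1.2 (E9.5). The study gives fewer cells for both libraries than the barcodes deposited. Cells with 200 to 5500 genes and at most 10% mitochondrial UMIs were kept, as in the study (77936364 and 166191431 UMIs). The members, gates and lists were chosen with earlier results of these data known.

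UMIs were summed over the cells of a gate and divided by the gate's total (CPM); intervals were exact 95% Poisson, conditional binomial (ratios) or Clopper-Pearson (shares), and a count of 0 was given the limit of 3 counts. Gates that share cells were compared as if independent, so those intervals are approximate. Where intervals of single groups are said to overlap, this does not show that their levels were equal. E9.5 gates, in UMIs, were: epithelium, Epcam at least 2 with Twist1 plus Prrx1 at most 1, Sox10 0 and Cdh5 0; crest, Sox10 at least 1, Epcam below 2 and Cdh5 0; mesenchyme, Twist1 plus Prrx1 at least 2 and no Epcam, Sox10, Cdh5, Tcf21 or Myf5; muscle progenitor, Tcf21 plus Myf5 at least 1, Epcam below 2, Sox10 0 and Cdh5 0; endothelial, Cdh5 at least 1 and Epcam below 2. A neuron gate held 3 cells and was not used. Thinning drew UMIs without replacement (seed 1) to the 10th percentile of depth. Named genes were the members, the fixed pathway, marker and cycling lists, the gate genes and the 5 genes of highest likeness per member with at least 200 UMIs; Sox10 cells at E12.0 were added after values were seen. Some genes of these lists, and splits of cells by them, are not reported here. Scrublet in scanpy 1.11.5 called 661 cells (5.82%) doublets at E12.0 and 331 (2.60%) at E9.5; these were kept, and left out as an alternative. In Poisson counts simulated for the E12.0 Irx1 gate and all other cells, 95.2% of 2000 intervals held the true ratio. That is the model the intervals assume, and spread of UMIs between cells was not simulated. The simulation therefore checks the calculation and not the fit to these data. Python 3.11.15, numpy 2.4.6, scipy 1.17.1 and pandas 2.3.3 were used.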

Additional observations from a re-analysis of the deposited data

How the results depend on the processing

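Over 126 alternatives to 11 results, 100 moved the value by less than its counting interval or left a count within 1.5 times. With gate bounds raised by 1 UMI, the log2 difference of Ntrk2 was 1.86 in the Irx1 gate against all other cells and -3.14 in the Shh gate against Irx1 gate cells without Shh, and that of Ngfr was -2.28 in the Irx1 gate and 1.55 in crest against mesenchyme. With values from thinned cells in the same gates, Ntrk2 gave 0.50 in the Timp3 gate and 1.69 in E9.5 epithelium against mesenchyme, Ngfr 0.60 in crest against mesenchyme, and Ntf3 -0.24 in epithelium against mesenchyme. With gates also set in thinned cells, Ntrk2 gave 1.98 in the Irx1 gate, -3.80 in the Shh comparison and 1.96 in E9.5 epithelium, Ngfr -0.89 in the Irx1 gate and, with its sign reversed, -0.23 in crest, and Ntf3 0.18; Ntrk3 could give no value there because a gate held 0 UMIs. With a gate limited to cells that met no other gate, and set against all remaining kept cells, Ntrk2 in the Timp3 gate gave 0.92 and Bdnf in the Irx1 gate -0.46. With at most 5% mitochondrial UMIs, Ntrk2 in the Timp3 gate gave 0.53 and the joint detection of Bdnf and Ntrk2 0.773. Cells with a Y-linked UMI gave -0.84 for Ngfr in the Irx1 gate, and cells with Xist alone gave 1.45 for it, 0.53 for Ntrk2 in the Timp3 gate and -3.32 in the Shh comparison. The count of 6 member and gate pairings was 1 in thinned cells under either way of gating, 1 with a UMI in 25% of cells, where the stricter minimum itself removes low genes, and 3 with a fold of 2. In thinned cells Bdnf was in 12.4% of the Timp3 gate and 9.44% of the Cxcl14 gate, below the 15% minimum. Over all thinned cells Ntf3 was in 12.7% and Ntrk2 in 6.96%, while Ntrk2 was in 20.5% of the Irx1 gate. For the remaining changes the cause was not tested. Dropping the cell filter, averaging per-cell CPM, and leaving out Scrublet doublets, the 5% of cells with the most UMIs or, as an alternative added after seeing the data, the barcodes shared by the libraries kept every result they applied to within its counting interval or 1.5 times its count. Few UMIs stood behind Ntrk3 (13 at the later stage, 47 at the earlier) and Ngfr (121 and 402). No paired analysis was possible because each stage has 1 library.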
